A study of Mus musculus with 3 samples.

Results

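Malat1 and Neat1, neighboring genes for nuclear long noncoding RNAs on mouse chromosome 19, carried 5 HBO1 ChIP-seq peaks between them, 4 in Malat1 and 1 in Neat1. Both genes were selected on their HBO1 peaks in these data, so the number, width and height of those peaks are given as a description, with no test. The region examined was chr19:5775690-5865478 (mm10), which spans both genes with 20 kb on each side and is 89789 bp long. It held 7 of the 13823 HBO1 peaks of the whole list: the 5 in the genes and 2 past the 3' end of Malat1. The strongest of them by both fold enrichment and q value lay inside the Malat1 transcript, with its summit 1555 bp downstream of the transcription start site (TSS). Neat1 differed in form, with a single wide and lower peak over its TSS and 19035 bp without a peak from there to its 3' end.

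HBO1 (KAT7) is the catalytic subunit of a MYST family histone acetyltransferase complex that acetylates histones H3 and H4, and which partner subunits such as Jade1 direct to chromatin. The cells were Oct1 deficient mouse embryonic stem cells (ESCs), which lack the widely expressed paralog of Oct4 encoded by Pou2f1. They were grown on mouse embryonic fibroblast feeders, which were depleted at the last passage, in LIF and 2i medium with 3 µM CHIR99021, a GSK3 inhibitor, 1 µM of a MEK inhibitor, PD0325901, and ascorbic acid, and were crosslinked with 1% formaldehyde. All samples shared this genotype and culture, so no comparison between genotypes or treatments could be made, and no expression was measured. The 2 HBO1 ChIP samples, described as biological repeats, were represented by 1 peak list, and the third sample was an input of sheared chromatin taken without an antibody. The title of the second ChIP sample names HBO1, whereas its antibody entry reads HBO2. With 1 list there was no spread between replicates at any peak, and intervals given for the input cover counting error only.

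The Malat1 RNA gathers in nuclear speckles, bodies rich in splicing factors, and is among the most abundant nuclear RNAs of mammalian cells. Its 3' end is not made by the usual cleavage and polyadenylation: RNase P cuts upstream of a tRNA-like fold, which is released as the small RNA mascRNA, and the end left behind is protected as a triple helix. Neat1 RNA is the scaffold of paraspeckles, bodies built around the proteins Sfpq, Nono and Pspc1, and occurs as a short polyadenylated form and a long form that starts at the same TSS and whose 3' end also forms at a tRNA-like structure.

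Both genes lie on the minus strand, so transcription runs toward lower coordinates. Malat1 (ENSMUSG00000092341.3) spans chr19:5795690-5802672, 6983 bp, and Neat1 (ENSMUSG00000092274.3) spans chr19:5824708-5845478, 20771 bp, with 22035 bp between them. In both, the transcript that covers the whole gene, Malat1-201 and Neat1-201, has 1 exon. The DNA under the internal Malat1 peak and the Neat1 peak is printed here for GRCm38 (mm10), minus strand, 5' to 3' in the direction of transcription, as the 300 bases centered on each summit. The Neat1 peak reaches over the TSS, but its printed bases center 1193 bp downstream and do not hold the TSS. The Malat1 promoter, the RefSeq window over its start, is added because a peak lies on it, and the 2 small RNAs are added because peaks were set against them. Capitals mark matches to the motifs described after the sequences, on either strand.
Malat1 promoter, chr19:5802623-5802922 (RefSeq, GRCm38.p6): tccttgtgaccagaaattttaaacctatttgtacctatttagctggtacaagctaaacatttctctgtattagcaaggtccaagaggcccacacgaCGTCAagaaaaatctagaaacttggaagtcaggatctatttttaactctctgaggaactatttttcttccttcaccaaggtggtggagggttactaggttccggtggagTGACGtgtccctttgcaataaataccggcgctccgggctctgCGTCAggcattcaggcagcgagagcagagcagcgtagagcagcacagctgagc
Malat1, internal peak, chr19:5800967-5801266: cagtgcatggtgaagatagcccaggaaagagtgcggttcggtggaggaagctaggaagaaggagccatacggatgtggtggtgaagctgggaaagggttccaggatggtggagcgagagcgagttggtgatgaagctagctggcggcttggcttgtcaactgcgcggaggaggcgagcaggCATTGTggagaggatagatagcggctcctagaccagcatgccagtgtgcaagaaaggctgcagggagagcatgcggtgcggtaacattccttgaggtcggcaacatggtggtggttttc
Neat1, peak at the start, chr19:5844135-5844434: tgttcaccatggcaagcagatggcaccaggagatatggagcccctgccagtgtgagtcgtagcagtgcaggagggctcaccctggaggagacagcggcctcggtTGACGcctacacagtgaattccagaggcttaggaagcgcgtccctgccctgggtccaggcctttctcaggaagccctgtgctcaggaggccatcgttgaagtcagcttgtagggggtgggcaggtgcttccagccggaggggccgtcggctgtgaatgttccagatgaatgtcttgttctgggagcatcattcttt
mascRNA, chr19:5795924-5795981: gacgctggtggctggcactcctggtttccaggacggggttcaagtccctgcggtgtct
Gm27702, the small RNA annotated at the Neat1 3' end, chr19:5824652-5824707: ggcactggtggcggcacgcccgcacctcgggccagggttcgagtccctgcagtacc

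Both strands were searched for the octamer ATGCAAAT, the site of Oct4 and Oct1 monomers, and for the MORE, a palindromic octamer-related element bound by Oct4 dimers, written ATGCATATGCAT with up to 1 mismatch. They were also searched for the Sox factor site CATTGT, the Sp1 family site GGGCGG (the GC box), the NF-Y site CCAAT, the core promoter element TATAAA, and the core of CREB/ATF family sites, TGACG. The window of the peak just past the Malat1 3' end was left out of this search. None of the other 6 windows around the summits held an octamer or a MORE by these letters. Over all 13823 windows of the same kind, 0.405% held an octamer and 0.0434% a MORE, and of 32851 RefSeq promoters of the same length 1.74% and 0.110% did. TGACG, found in 2759 of the 13823 peak windows and 6837 of the 32851 promoters, occurred in 3 of the 6 windows: 2 times at the Malat1 start, 1 time at the peak beside it and 1 time at Neat1. The Malat1 promoter held it 3 times, and 2 of these are the sites of the start peak. The CATTGT of the internal Malat1 peak is a match that 7.12% of peak windows and 12.6% of promoters held. TATAAA (3.60% of peak windows, 13.6% of promoters) was found only in the peak with its summit 612 bp into Malat1, next to 1 TGACG. No GC box, which 35.5% of peak windows and 35.7% of promoters held, and no CCAAT (25.3% and 37.4%) was found in the 6 windows or the Malat1 promoter. No matches overlapped within a window. Across the whole region there were 5 octamers, or 5.57 per 100 kb against 8.31 over chromosome 19, and the nearest lay 1207 bp from a peak, inside Neat1. There was no MORE in the region, against 1.18 per 100 kb on the chromosome.

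**Figure D1:**
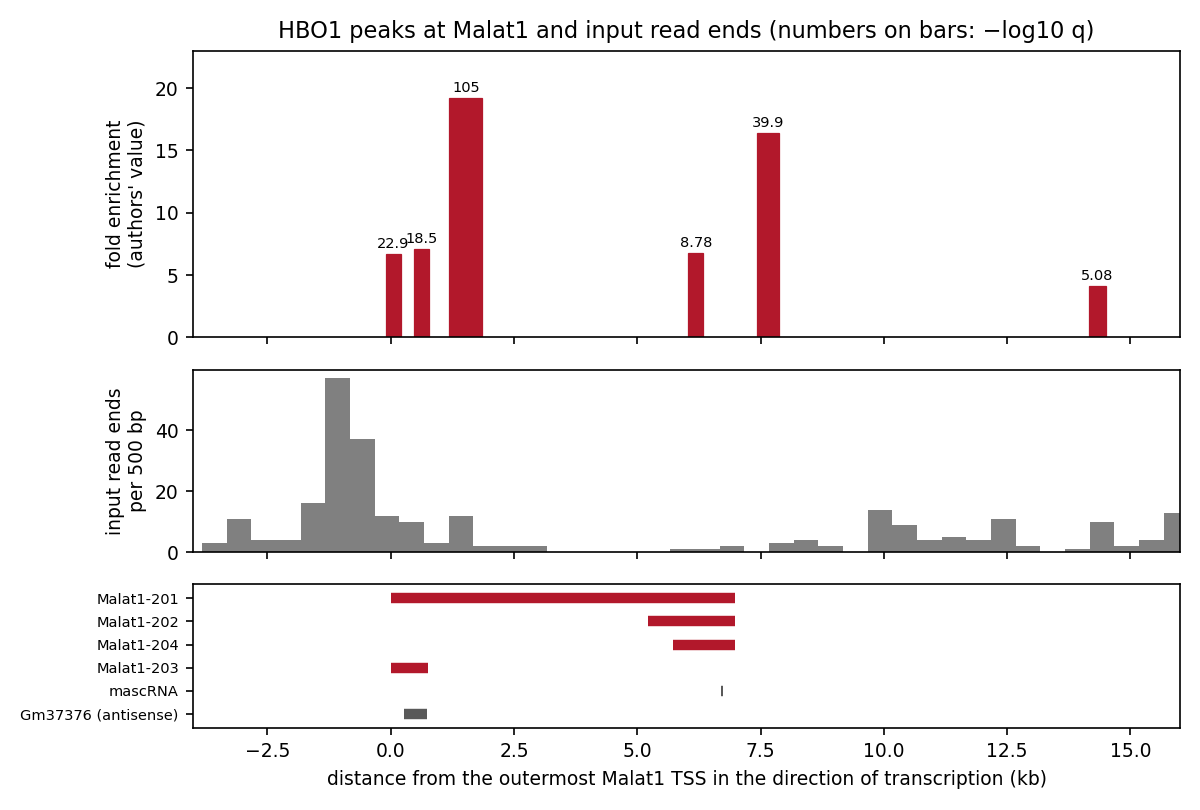
HBO1 peaks (top, the authors' fold enrichment, with −log10 q on each bar and the peak's extent as the width), input read ends per 500 bp (middle) and transcript spans (bottom) around Malat1, against distance from its outermost TSS in kb in the direction of transcription. Peaks stood at the TSS, 2 further downstream in the early transcript, 1 near the 3' end and 2 beyond it, and the 2 highest, at 19.2 and 16.4, had 14 and 3 input read ends within 500 bp of the summit.

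At Malat1, peaks lay at the start, in the early transcript, near the 3' end and in the flank past it. The peak at the start, chr19:5802466-5802772, was 307 bp wide and lay 207 bp inside the gene and 100 bp upstream of it, with its summit 26 bp downstream of the TSS. Its fold enrichment, the authors' ratio of ChIP signal to local background at the summit, was 6.68 and its −log10 q was 22.9. These ranked it 1004 by fold and 588 by q among all peaks, whose medians were 3.80 and 6.98. It was therefore above the middle of the list on both measures, although its width was below the median of 367 bp.

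The peak next to it, chr19:5801891-5802196, ranked 652 by its fold enrichment, 7.10, and 961 by its −log10 q, 18.5, and had its summit 612 bp into the gene. That summit fell in the exon of Malat1-201 and in the intron of the spliced Malat1-203. It also fell in Gm37376, a gene model of unsettled type on the opposite strand (chr19:5801941-5802393), whose annotated start the peak covered. Of the peak's bases, 50.3% were soft-masked as repeats in the genome, against a median of 8.14% over all peaks.

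The internal peak of Malat1, chr19:5800812-5801485, was the highest of the 349 HBO1 peaks on chromosome 19 by fold enrichment and by q. Its fold enrichment of 19.2 ranked 5 and its −log10 q of 105 ranked 29 of 13823. It was 674 bp wide, which ranked 1256, and its summit lay at 22.3% of the length of the gene. The only transcript it overlaps is the single exon of Malat1-201. The nearest annotated TSS was not that of Malat1 but that of Gm37376, 456 bp away, and this is what places it among the 5625 peaks within 1 kb of a TSS, where it ranked 4 by fold. Only 78 peaks (0.564%) reached a fold enrichment of 10, and 3 of these were on chromosome 19, 2 of them at Malat1.

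Near the 3' end of Malat1, the peak at chr19:5796337-5796634 ranked 882 by its fold enrichment, 6.78, but 4515 by its −log10 q, 8.78. Its summit lay at 88.7% of the gene length, in the exons of Malat1-201 and Malat1-204 and the intron of Malat1-202. The peak edge was 356 bp upstream of mascRNA and 318 bp from the start of the short Malat1-204. The distance between its ranks by fold and by q was the widest of the 4 peaks in the gene. It also had the fewest input read ends of the 4, 2 within 500 bp of the summit on either side.

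Past the 3' end stood the second highest peak of chromosome 19 by fold enrichment, chr19:5794790-5795245. Its fold enrichment of 16.4 ranked 12 and its −log10 q of 39.9 ranked 191 of all peaks. It began 445 bp beyond the annotated end of Malat1, had its summit 709 bp beyond it, and lay 679 bp downstream of mascRNA, so mascRNA and the gene end were flanked by peaks on both sides, 1091 bp apart. Of all peaks, 199 (1.44%) had a summit outside genes and up to 1 kb past a 3' end. These had a median fold enrichment of 4.72, and the peak at Malat1 was the highest of them, ahead of one at 13.7. Among the 8198 peaks over 1 kb from any TSS it ranked 4 by fold and 73 by q.

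The last peak of the region, chr19:5788158-5788520, had its summit 7321 bp past the Malat1 3' end and was low. Its fold enrichment of 4.12 ranked 6226 and its −log10 q of 5.08 ranked 10095, and 46.8% of its bases were soft-masked. It is the only one of the 7 for which most peaks of like input had a higher fold, as given with the input counts. Outside the region the nearest peaks were 46.1 kb below it and 46.7 kb above it, with fold enrichments of 2.38 and 2.42, so no peak stood near either limit of the region.

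**Figure D2:**
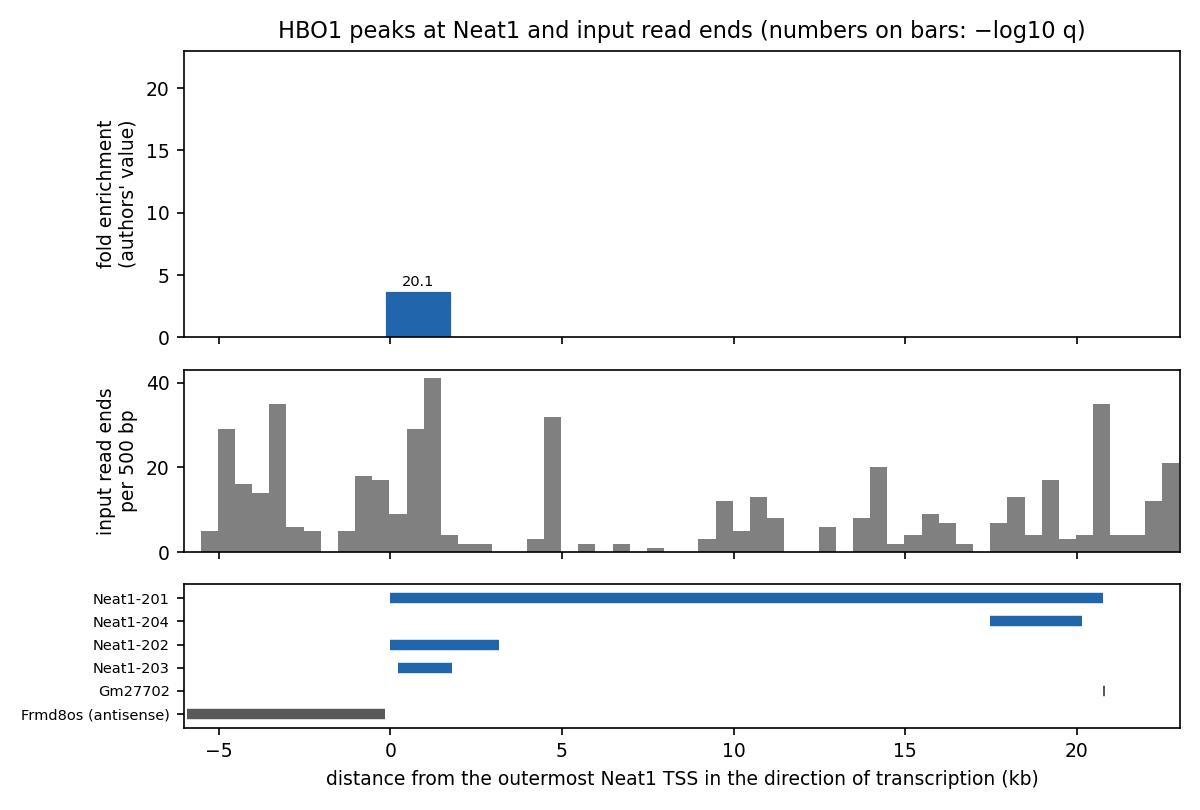
HBO1 peak, input read ends per 500 bp and transcript spans around Neat1, drawn as for Malat1 and on the same fold enrichment scale, against distance from the outermost Neat1 TSS in kb. The single peak, at 3.64, covered the TSS, and no peak stood over the rest of the gene.

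At Neat1 the single peak, chr19:5843743-5845598, was 1856 bp wide and ranked 18 of 13823 by width. It covered 1736 bp of the gene and 120 bp upstream of the TSS, and its summit lay 1193 bp downstream, at 5.74% of the gene length. Its fold enrichment of 3.64 was below the median of all peaks (rank 7289), whereas its −log10 q of 20.1 ranked 793. Among the 349 peaks of chromosome 19 it ranked 156 by fold and 15 by q. The summit fell in exons of 3 of the 4 annotated transcripts, the long Neat1-201, the short Neat1-202 of 3170 bp and Neat1-203. Within the gene, the peak lay over the part that Neat1-201 and Neat1-202 share, and the part beyond the 3' end of Neat1-202 held no peak. It also covered 3 small RNA models inside Neat1, Gm27533, Gm27505 and Gm28006, and its summit lay 1 base outside the limit of Gm27533.

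Of the other genes annotated in the region, none had a peak that did not also lie in Malat1 or Neat1. Frmd8os, an antisense RNA gene, starts 145 bp upstream of Neat1 and runs the other way, and the Neat1 peak ended 25 bp short of its TSS. Its protein-coding partner Frmd8 had no peak in its body, and its closest annotated TSS was 18084 bp from one. Gm27702, the small RNA at the Neat1 3' end, lay 19036 bp from the nearest peak, in contrast to mascRNA at Malat1. Gm27694, a small RNA model within Malat1, started 1727 bp from the nearest peak. The first peaks of the 2 genes were 40970 bp apart, and consecutive peaks of Malat1 and its flank were separated by 269, 405, 4177, 1091 and 6269 bp in the direction of transcription. The 3 peaks of the early transcript were thus closer together than any others in the region.

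The base composition under the peaks differed along the locus, and that of the peak just past the Malat1 3' end is not reported here. GC content was 43.6% at the Malat1 start, 48.4% and 50.1% at the next 2 peaks, 52.3% near the 3' end and 54.5% at the low distal peak, and it was 55.1% at Neat1. These 6 values were below the median of 56.7% over all peaks. The ratio of observed to expected CpG fell along Malat1, from 0.839 at the start to 0.674, 0.455 and 0.246 within the gene. Of the 6, only the 2 peaks nearest the Malat1 start were above the all-peak median of 0.481, and the Neat1 peak, with 55 CpGs, had a ratio of 0.406.

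**Figure D3:**
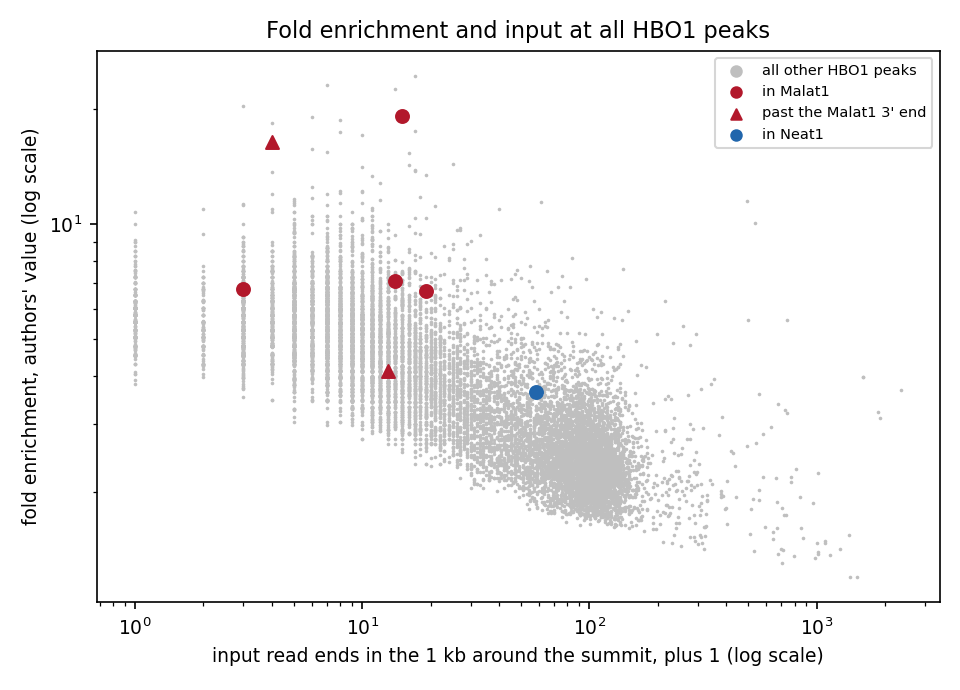
Fold enrichment (the authors' value, log scale) against input read ends within 500 bp of the summit plus 1 (log scale) for all 13823 HBO1 peaks, with those in Malat1, past its 3' end and in Neat1 marked. Peaks with few input read ends had the higher folds, and the 2 marked peaks at 19.2 and 16.4 lay near the top of the peaks with similar input.

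Where an input is supplied, Macs2 takes the denominator of the fold enrichment from it, and the sources used here do not state the control that was given. Read ends of the input within 500 bp of the summit numbered 18 at the Malat1 start, 13 and 14 at the next 2 peaks, 2 near the 3' end, 3 past it, 12 at the distal peak and 57 at Neat1, where the median over all peaks was 19. Each peak was therefore set beside the peaks whose input count was within a factor of 1.2 of its own. For the internal Malat1 peak there were 1171 such peaks with a median fold enrichment of 4.34, of which 2 were higher by fold and 1 by q. For the peak past the 3' end there were 330 with a median of 5.55, of which 1 was higher by fold and 1 by q. The internal peak's 14 read ends were near the middle of the list and the 3 of the peak past the 3' end were low, and both peaks stood near the top among peaks of like input. This is a description only, since the genes were selected on their peaks. The match used the count within 500 bp of the summit, so peaks of like input need not share a denominator. Counts of 3 and 14 read ends are small, and the background that entered either fold enrichment is not known from them.

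The other peaks stood lower by the same reading. For the Malat1 start peak, 47 of 985 peaks of like input were higher by fold (median 4.01), for the peak beside it 64 of 1260 (median 4.46), and for the peak near the 3' end 84 of 618 (median 5.55). The Neat1 peak, whose fold was below the median of the whole list, was above that of its like-input group of 982 peaks, 2.65, and 133 of these were higher. At the distal peak 1025 of 1567 were higher, with a median of 4.63.

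The input over each gene was set against windows of the same GC content. The 1-kb windows over Malat1 held 45 input read ends of mapping quality 20 or more, where windows of the same GC content elsewhere on the autosomes would hold 24.6, a ratio of 1.83 with a 95% Poisson interval of 1.15 to 2.77 on read pairs. With windows of 500 bp the Malat1 ratio was 1.16. For Neat1 the ratio was 1.56 (265 read ends against 170; 1.30 to 1.85). Runs of 7 windows on chromosome 19 had a median ratio of 0.917 and a central 95% range of 0.219 to 2.21, and 93.8% of them lay below Malat1. Runs of 21 windows had a median of 0.947 and a range of 0.414 to 1.73, and 94.7% lay below Neat1, whose ratio came from 20 windows. Both genes were within the central range of the chromosome. Ratios above 1 were also found outside the gene bodies, where the ratio was 1.41 between the genes, 1.59 in the 20 kb past Malat1 and 1.30 in the 20 kb upstream of Neat1, with 1.42 (1.32 to 1.51) over the whole region.

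Within Malat1 the input was uneven. The 2 windows centered in the first 2 kb of the gene held 22 and 15 read ends, 7.24 and 3.45 times the value for their GC content, and the 5 windows centered 2 to 7 kb from the TSS held between 0 and 4, with ratios of 0.921, 0.842, 0, 0 and 0.461 toward the 3' end. The ratio above 1 for the whole gene thus came from its first 2 windows. The window with 22 read ends reached upstream of the TSS, to chr19:5803000. Of its read ends, 12 lay in the 500 bp that span the TSS, so the excess is not confined to the gene. The window just upstream of the TSS, with 60.2% GC, held 94 read ends, 1.33 times its expected value, and no peak. In Neat1 the windows outside the peak held between 0 and 32 read ends with a median of 6. The ratio under the Neat1 peak was 1.02 (0.757 to 1.35), against 1.58 (1.28 to 1.93) over the rest of the gene. All 41 read ends within Malat1 and all 290 within Neat1 were of mapping quality 20 or more, against 92.5% on chromosome 19. Read ends that repeated a position made up 2.44% and 6.21% of those in the 2 genes and 4.16% on the chromosome.

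**Figure D4:**
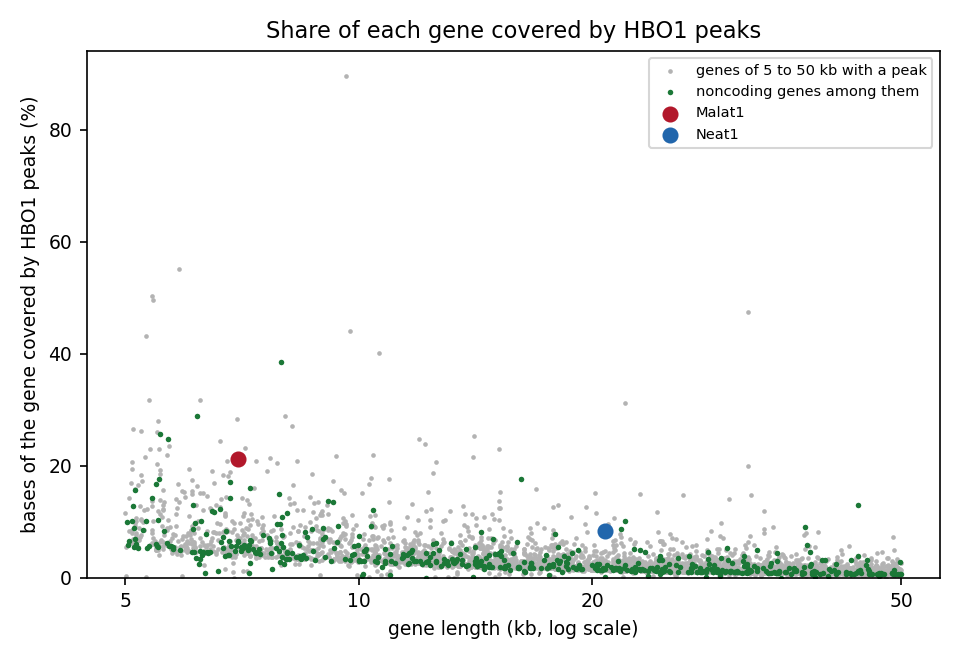
Share of each gene's bases covered by HBO1 peaks (%) against gene length (kb, log scale) for the 3729 genes of 5 to 50 kb with a peak in the body, noncoding genes in green. Malat1, at 21.3%, and Neat1, at 8.36%, lay above the median of 2.40% for these genes.

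Because long genes can hold more peaks, the share of each gene's bases under peaks was compared among the 18380 genes of 5 to 50 kb. This share leans the other way, since a peak of a given width covers more of a short gene. Malat1, of 6983 bp, is near the lower limit of the class, and its rank was not adjusted for length. Peaks covered 1485 bp of Malat1, 21.3%, which ranked 38, and 1736 bp of Neat1, 8.36%, which ranked 313. A peak in the body was found in 20.3% of these genes, with a median covered share of 2.40% among them, and in 10.8% of the 4749 noncoding ones. Since Malat1 and Neat1 were chosen for their peaks, nothing is read from their being among the 20.3%. Among noncoding genes Malat1 ranked 5, after Gm42047 (38.6%), Gm15726 (28.9%), Gm20427 (25.8%) and the small nucleolar RNA host gene Snhg3 (24.8%), and Neat1 ranked 44. Among the 29171 genes of 2 to 100 kb, Malat1 ranked 203 and Neat1 802.

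Genes with 4 or more peaks numbered 87, or 0.473% of those of 5 to 50 kb, and had a median length of 26.2 kb. Malat1 was among the 9 that were noncoding, and only Gm15726, Eef2, Gm21742 and Tpgs1 were shorter. Tiles of the genome of the same length as the region held 7 or more peaks in 107 of 29498 cases (0.363%), up to 25 peaks, and 21152 held none.

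The genes on either side of Malat1 in order of covered share all code for proteins. Next above were Fam219b (21.9%), Tgif1 (21.7%), a homeodomain repressor of TGF-β signaling, Impdh2 (21.6%), an enzyme of guanine nucleotide synthesis, Tbx3 (21.6%), a T-box factor of pluripotent cells, and Ing1 (21.4%), a PHD finger protein. Next below were Traf4, an adapter of TNF receptor signaling with 3 peaks, the ribosomal protein gene Rpl22 (20.9%), Nodal (20.9%), a TGF-β family ligand, Tpgs1 (20.9%) and the mitochondrial protease gene Lonp1 (20.7%). These neighbors held 2 to 5 peaks each, as Malat1 held 4. Around Neat1 stood Gm6034 (8.42%), Mat2a (8.40%), which makes S-adenosylmethionine, Smad7 (8.40%), an inhibitor of TGF-β signaling, Hoxc13 (8.38%) and Zfp628 (8.37%) above, and Zfp428 (8.36%), Klf10 (8.34%), Nudcd2 (8.34%), Six4 (8.33%) and Gm4954 (8.32%) below. Neighbors in both orders differed little, and with 1 peak list no spread is known against which to set such differences.

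The gene lists here and below were chosen with earlier results of these data known. No expression was measured, so the shares of the lists were not set beside those of genes expressed alike. Of a list of 38 other long noncoding RNA genes, 36 matched the annotation. A peak within 1 kb of a TSS of any transcript was found for 18 (50.0%), against 7.86% of all 10155 noncoding genes, and 16 had no peak there or in the body, among them Xist, H19, Tug1, Firre and Hotair. With only the outermost TSS of each gene it was found for 14 (38.9%), and no share over all noncoding genes is given for that definition. Terc and Rpph1 are of gene types outside those 10155, which also leave out gene models of unsettled type. The 4749 noncoding genes of 5 to 50 kb include such models. The highest covered shares were those of short genes: Terc (97.9%), the telomerase RNA, and Snhg8 (42.4%) and Snhg12 (40.4%), hosts of small nucleolar RNAs. Apart from Malat1, 4 or more peaks were found in 2 of the list, Lncenc1 (5 peaks, 3.56% covered), a long noncoding RNA of naive ESCs, and Snhg14 (25 peaks, 1.95% covered), the host transcript of the Prader-Willi region. Their top fold enrichments were 12.5 and 14.1, below the 19.2 of Malat1. These genes were 62038 and 667836 bp long. Snhg12, of 2402 bp, held 2 peaks.

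Genes for the proteins of paraspeckles, the bodies that Neat1 RNA organizes, had a peak within 1 kb of a TSS in 11 of 15 cases (73.3%), against 21.7% of all 21938 protein-coding genes. The 3 with the highest covered shares were Hnrnpk (11.9%, 2 peaks), whose protein governs the choice between short and long Neat1 RNA, Hnrnph3 (7.71%) and Rbm14 (7.29%). Sfpq, a core paraspeckle protein, had 1 peak, whose fold enrichment was 2.64 and whose −log10 q was 13.9. Its partner Nono, the polyadenylation factor Nudt21, the chromatin remodeler Smarca4 and Dazap1 had no peak in the body or within 1 kb of a TSS. No gene of the list had 4 or more peaks.

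Genes for Malat1 3' end processing and for nuclear speckles had a peak within 1 kb of a TSS in 15 of 25 cases (60.0%). All of the list but the RNA gene Rpph1, which had none, code for proteins, and the share over all protein-coding genes was the 21.7% given for the paraspeckle list. The 3 highest covered shares were those of Srsf2 (33.3%, fold enrichment 4.10), an SR splicing factor gene, Rpp25 (24.3%, 2.46), an RNase P subunit gene, and Srsf6 (15.7%, 2.55), another SR factor gene. The RNase P genes Rpp21 (15.5%) and Pop5 (3.93%) also had a peak, and Srrm2, a core speckle protein gene, held 7 peaks, the most of the list. The 9 genes without a peak in either place were Rpp14, Rpp30, Rpp38, Rpp40, Pop1, Pop4, Pop7, Rpph1, the RNA subunit, and Elac2, which trims the 3' ends of tRNAs and mascRNA. All 9 are RNase P genes or Elac2, and among the RNase P genes only Rpp21, Rpp25 and Pop5 had a peak. The 60.0% thus came mainly from the other genes of the list.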

How the data were processed

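HBO1 ChIP-seq was performed on 2 samples of Oct1 deficient ESCs, with 1 input. Paired reads were aligned by the authors to mm10 with Novoalign 4.03.01 and peaks were called with Macs2 at q 0.005 and max-gap 100. How the ChIP samples were combined, and whether duplicates were filtered, is not given in the sources used here, and a table title in the study's supplement names WT ESCs whereas the labels name Oct1 deficient ESCs. The deposited peak list gives a fold enrichment, the authors' ratio over local background, a −log10 p and a −log10 q value from the authors' peak caller, and a summit offset. The deposited input lists 31973678 aligned read ends (15963975 first reads) with the aligner's mapping quality score, without normalization. The depth of the ChIP samples was not analysed here.

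The software was pandas 2.3.3, numpy 2.4.6 and scipy 1.17.1 under Python 3.11.15, and matplotlib 3.10.9 for figures. Genes and transcripts came from GENCODE mouse release 21, mascRNA from RefSeq, and sequence from GRCm38, to whose chromosome lengths the input positions were checked. Input read ends of mapping quality 20 or more were assigned by midpoint to 1-kb windows and compared with the mean of windows of the same 2% GC class, from 30 to 65% GC with at most 200 read ends, on autosomes other than chromosome 3. Counts around summits used all read ends. Overlap meant at least 1 shared base. Scripts were tested on simulated data. No p-value was computed, since there is 1 peak list and 1 input. Pileups solved from fold enrichment and −log10 p were whole within 0.02 for 4.42% of peaks and are not reported. The sequence and base composition under the peak past the Malat1 3' end are not reported here.

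The members and gene lists were chosen with earlier results of these data known. Named genes were Malat1, Neat1, every gene annotated within 20 kb, the 3 genes of each list with the highest covered share, genes of a list without a peak where few, and the 5 genes of 5 to 50 kb next above and below each member. Sfpq, Rpp21, Pop5, the genes with 4 or more peaks, Snhg3 and the other noncoding genes above Malat1, and the genes without peaks in longer groups were named after their values were seen. Alternatives were stricter q values, merged peaks, other flanks, gene limits, length classes, read filters, window widths and TSS definitions.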

Additional observations from a re-analysis of the deposited data

How the results depend on the processing

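No replicate could be left out, and no paired analysis was possible because the 2 ChIP samples were given as 1 peak list and the input is 1 library. A count or rank was held to have moved when it changed by more than 1.5 times, a share or input ratio when it left the 95% counting interval of the reported value, and a median fold enrichment at any change. By these limits 9 values moved and 26 did not. The limits differ in kind, so this tally is a description only. For a covered share, bases under the same peak are not independent, so a counting interval on them is narrow. With a −log10 q of at least 10, the covered share of Malat1 was 17.0%, since the peak near the 3' end was lost, and the median fold enrichment of its peaks was 7.10 in place of 6.94. With peaks within 1 kb merged, the covered share was 30.9%, since the gaps between the first peaks were then counted. Among genes of 2 to 100 kb, Malat1 ranked 203 and Neat1 802, and among noncoding genes of 5 to 50 kb they ranked 5 and 44, because other genes were ranked with them. The share of genes of 5 to 50 kb with a peak was 15.9% and 6.51% when the −log10 q had to reach 5 and 10, because fewer peaks were kept. The number of peaks in the region was 5 at the stricter of these, with merging, and in the gene bodies alone. With only the outermost TSS of each gene, the shares with a peak within 1 kb were lower. They were 38.9% for the other long noncoding RNA genes, 66.7% for the paraspeckle list and 52.0% for the processing and speckle list. The input ratio of Malat1 was 1.16 with windows of 500 bp, more than 1.5 times below 1.83 though inside its interval of 1.15 to 2.77, and between 1.60 and 1.84 otherwise. The cause was not tested. That of Neat1 stayed between 1.44 and 1.58. The low input counts limit the precision of all ratios at Malat1.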
